A study of Zea mays subsp. mays with 8 samples.

Results

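Root-only start-site loci of maize seedlings are described here. They are places where transcription start sites were listed in both root sets of the study and in neither of its shoot sets. Same-strand clusters of start sites from all 4 deposited sets were joined into loci wherever they overlapped, which gave 27756 loci. Loci with a cluster in both root sets and none in either shoot set numbered 441. Of these, 38 lay in dense runs and were left out, so 403 root-only loci remained. A dense run is a stretch with at least 10 strongest sites of a set spaced at most 2000 bp apart. Outside runs, 10887 loci had a cluster in both root sets, and the root-only loci were 3.7% of them. These loci were selected on the presence or absence of clusters in the lists, so their presence in root and absence from shoot are a description and carry no test.

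The assay was CAGE (cap analysis of gene expression): capped 5′ ends of RNA are captured and a short tag is read from each. Shoots and roots came from wild-type, untreated 14-day-old seedlings of 2 maize inbred lines, B73 and A632. Each of the 4 groups had 2 libraries, and each library pooled 5 seedlings. PCR ran for 16 cycles in B73 root and for 14 cycles elsewhere. The files name their 4 sets B73_R, B73_S, Mo17_R and Mo17_S. The first pair matches the labels of B73 root and B73 shoot. Mo17 is another maize inbred line that no sample label names, while the labels name A632, so those sets are called by their names in the files and the line behind them cannot be told. Each set gives 1 value per cluster and none per library, so replicate spread is unknown and every difference below lacks a check against replicates. The intervals given are 95% Wilson intervals that cover counting error only and take loci as independent. No cluster carries a gene name and the sources used here do not give the genome build, so loci are named by the position of their dominant (strongest) site, the sequences at these sites are not shown, and the tissue could not be checked against marker genes.

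A transcription start region can be sharp, with most RNAs beginning at nearly the same base, or broad, with starts scattered over many bases. In animals, sharp regions are often found at genes with a TATA box and tissue-restricted expression, and broad regions at genes used in most cells. Roots take up water and mineral ions and anchor the plant, while shoots carry out photosynthesis, and many plant genes are used mainly in one organ. A gene can also have several start regions on the same strand, each used in different tissues.

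Tag totals and listing differed between the sets and bear on what absence from a list means. The tags behind all dominant sites summed to 1267305 in B73_R, 2797561 in Mo17_R, 2394924 in B73_S and 3409185 in Mo17_S. These sums cover the dominant sites of listed clusters only and are not the sequencing depth. Clusters made of a single position were listed only from a signal of 3.11 (18 tags) in B73_R, 3.11 (22 tags) in Mo17_R, 3.12 (16 tags) in B73_S and 3.06 (18 tags) in Mo17_S. Clusters of several positions were listed down to a signal of 0.531 in B73_S and 0.486 in Mo17_S. Absence from a shoot list therefore does not show that a site is silent in shoot, and a site of a single position could have carried up to about that many tags unlisted. Both root signals were above the higher shoot limit for single positions, 3.12, in 319 of the 403 loci. They were at least 4 times that limit in 73 loci and at least 10 times in 20.

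Root-only loci spanned a wide range of signal, and a few were among the strong start sites of root. The signal is the authors' normalized value of a whole cluster. In B73_R it ran from 1.39 to 746, with a median of 5.83 and quartiles of 3.65 and 12.01. In Mo17_R it ran from 0.837 to 2412, with a median of 9.13 and quartiles of 4.93 and 19.6. All loci listed in both root sets had median signals of 6.78 in B73_R and 12.03 in Mo17_R, higher than the root-only medians. On tags of the dominant site the order was the other way, with root-only medians of 25 in B73_R and 49 in Mo17_R against 21 and 44 over all loci in both root sets. Together the 403 loci held 1.28% of the whole B73_R signal and 2.18% of the whole Mo17_R signal. From a signal of 2 upwards, the share of loci in both root sets that were missing from both shoot sets was lower at higher signal. Loci were placed in steps by the lower of both root signals. The share was 6.25% (interval 5.44 to 7.16) in the step starting at 2, 5.08% in that starting at 5 and 3.03% in that starting at 10. It was 1.92% in the step starting at 20 and 1.68% (0.985 to 2.86) at 50 or more. The weakest step, under 2, broke this order with 0.485%.

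**Figure D1:**
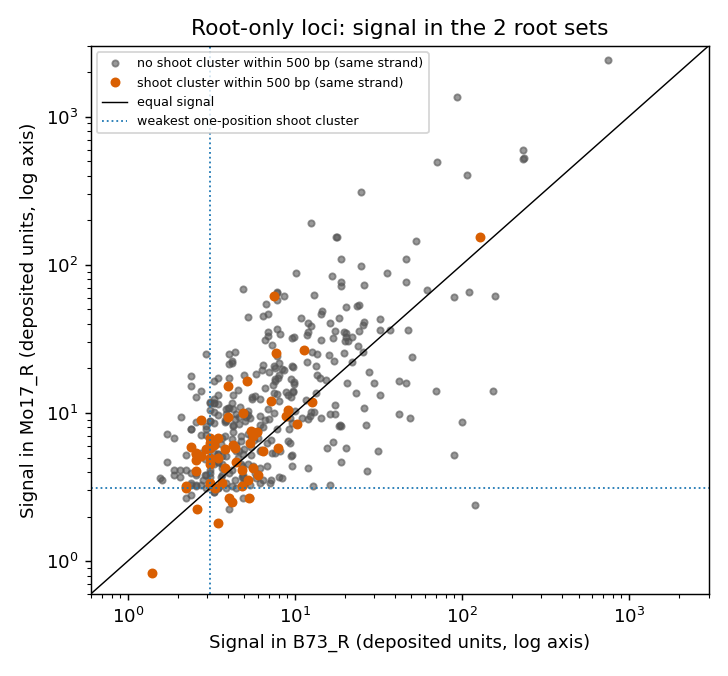
Signal of each of the 403 root-only loci in B73_R (x axis) and Mo17_R (y axis), in the authors' normalized units on log axes, with loci that have a same-strand shoot cluster within 500 bp in orange. Most points lie above the line of equal signal, and the orange points gather near the dotted lines, which mark the weakest single-position shoot cluster (3.12).

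The strongest root-only locus had its dominant site at 110499026 (chromosome 1, plus strand). Its signal was 746 in B73_R, from 2724 tags at the dominant site, and 2412 in Mo17_R, from 15843 tags. The same base was dominant in both sets and carried 98.9% of the cluster's signal in B73_R and 98.0% in Mo17_R. The nearest shoot cluster lay 312787 bp away on its strand and 404660 bp away on the other strand. This locus alone held 11.8% of the root-only signal in B73_R and 17.9% in Mo17_R. The 15 strongest loci, ranked by the lower of both root signals, held 38.4% and 52.1%.

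Next in rank came 49283980 (chromosome 1, plus strand), with a signal of 237 in B73_R and 524 in Mo17_R. It was followed by 117402188 (chromosome 9, plus strand), with 234 and 598. The locus at 49319430 (chromosome 1, minus strand) had 232 and 514. At each of these 3 loci a single base was dominant in both sets and held between 89.4% and 97.5% of the cluster's signal, so each was a single-base start in both root sets.

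The fifth, at 20404172 (chromosome 6, minus strand), was of another kind. Its signal was 128 in B73_R and 153 in Mo17_R, spread over widths of 89 bp and 83 bp. Its dominant site held only 28.6% of the B73_R signal and 19.0% of the Mo17_R signal, and a different base, 20404151, led in Mo17_R. It was also the only one of the 15 with a shoot cluster close by. That neighbour lay 113 bp downstream at 20403994 to 20403995 and was listed in Mo17_S at a signal of 2.67 and in Mo17_R at 4.51, far below the root-only locus itself.

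The remaining strong loci were mostly single-base or narrow starts. The site at 135553528 (chromosome 9, minus strand) had a signal of 107 in B73_R and 403 in Mo17_R. At 10990063 (chromosome 8, plus strand) the signal was 93.6 in B73_R and 1354 in Mo17_R. At 213519439 (chromosome 2, minus strand) it was 71.3 and 492. These last sites were the only 2 of the 15 that differed by at least 4-fold between the root sets, both with Mo17_R higher.

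The site at 167674355 (chromosome 7, plus strand) had a signal of 111 in B73_R and 65.7 in Mo17_R, the site at 300606460 (chromosome 1, plus strand) had 158 and 62.0, and the site at 20349924 (chromosome 6, plus strand) had 89.96 and 60.4. These were the 3 of the 15 with more signal in B73_R. The site at 2306112 (chromosome 1, minus strand) was nearly even, with 62.1 and 67.5. Those at 74719901 (chromosome 1, minus strand) (53.0 and 145), 172793857 (chromosome 7, plus strand) (46.2 and 76.1) and 145645797 (chromosome 8, plus strand) (46.1 and 109.9) completed the 15. Of the 15, 13 were sharp in both root sets, 11 had the same dominant base in both, and 14 had no shoot cluster within 10000 bp on their strand.

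**Figure D2:**
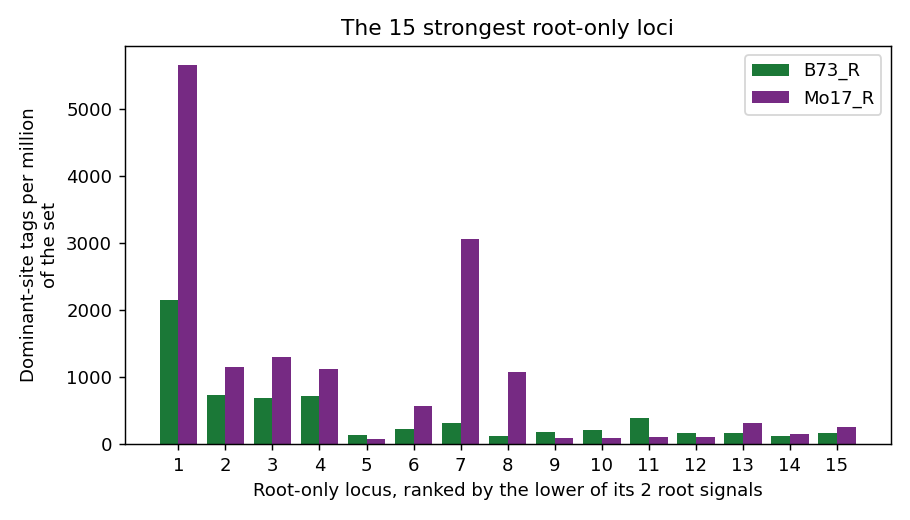
Tags at the dominant site scaled to 1000000 dominant-site tags of the set, for the 15 strongest root-only loci in B73_R (green) and Mo17_R (purple), each bar a single value without replicates. The first-ranked locus is the highest in both sets, and the seventh-ranked, on chromosome 8, has the largest ratio between them.

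Start regions at root-only loci were narrow. Sharp here means a width of at most 10 bp, where the width covers the central part of a cluster's signal, from its 10% to its 90% quantile. In B73_R 340 of 403 root-only loci were sharp (84.4%, interval 80.5 to 87.6), beside 48.7% of all loci in both root sets. In Mo17_R 334 were sharp (82.9%, 78.9 to 86.2), beside 41.8%. Of loci listed in all 4 sets, 45.6% (44.6 to 46.6) were sharp in B73_R and 38.7% (37.7 to 39.7) in Mo17_R. The median width at root-only loci was 2 bp in both root sets, against 16 bp in B73_R and 27 bp in Mo17_R at loci in all 4 sets. The 727 loci listed in both root sets and in 1 shoot set lay between these classes. They were sharp in 69.7% (66.3 to 72.97) in B73_R and 61.1% (57.5 to 64.6) in Mo17_R, with median widths of 3 bp and 5 bp. Root-only loci were sharp in both root sets in 303 cases, sharp in B73_R alone in 37, sharp in Mo17_R alone in 31 and broad in both in 32. The mirror class, 1156 loci outside runs listed in both shoot sets and in neither root set, was sharp in 55.8% (52.9 to 58.6) in B73_S and 56.9% (54.0 to 59.7) in Mo17_S. With a single set per group, these differences could be given only with counting intervals and not tested against replicates.

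The difference was seen across levels of signal. In the step starting at 2, 83.6% of 189 root-only loci were sharp in B73_R against 45.9% of loci in all 4 sets. In the step starting at 10 it was 90.2% of 51 against 41.2%, and in that starting at 20 it was 91.7% of 24 against 49.0%. At 50 or more it was 12 of 13 loci, with an interval of 66.7 to 98.6% that reached the 69.2% of loci in all 4 sets.

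**Figure D3:**
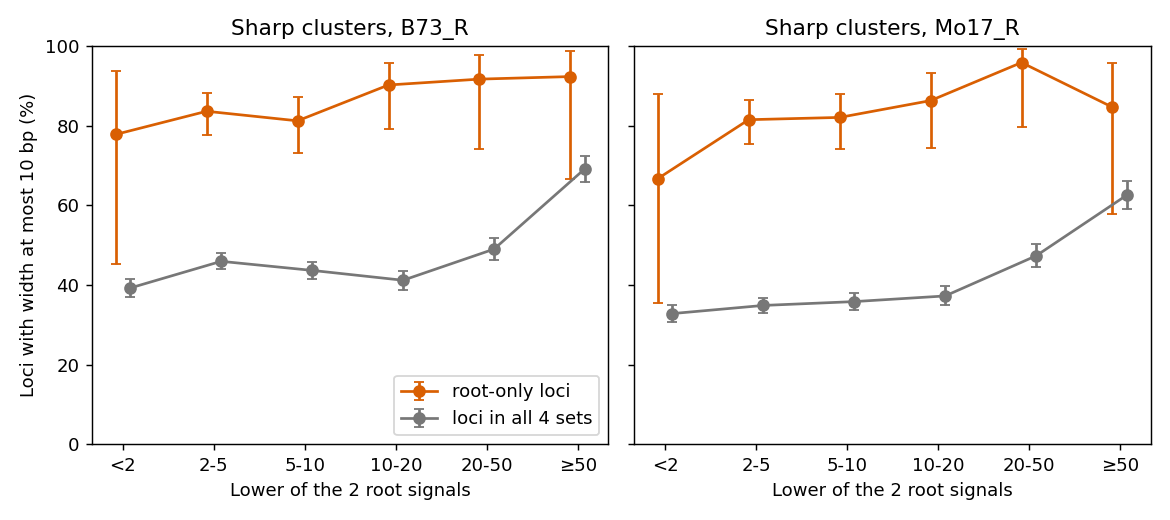
Share of loci with a width of at most 10 bp in B73_R (left) and Mo17_R (right), by the lower of both root signals, for root-only loci (orange) and loci in all 4 sets (grey), with 95% Wilson intervals. The orange points lie above the grey ones in every step, and the intervals overlap in the strongest step of both sets, where there are 13 root-only loci.

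Single-position clusters were frequent at root-only loci. They were 31.5% of root-only loci in B73_R and 40.2% in Mo17_R, against 3.46% and 3.90% of loci in all 4 sets and 23.1% and 22.3% of loci with a cluster in 1 shoot set. As such clusters were listed only above a minimum signal in every set, a single-position start can be missing from a shoot list at a level at which a wider one would be listed, and a wide region has more bases at which to overlap a shoot cluster. The part of these listing effects in the narrowness was not tested. Among loci with several positions in both root sets, 76.0% of 192 root-only loci were sharp in B73_R (69.5 to 81.5) and 69.8% in Mo17_R (63.0 to 75.8), against 43.1% and 35.6% of 9168 loci in all 4 sets, so a wide gap was also present without single-position clusters. Among loci whose clusters spanned at least 11 bp in both root sets, which can be sharp or broad by their own signal, the contrast was within the counting error in B73_R. There 28.3% of 53 root-only loci were sharp (18.0 to 41.6) against 21.9% (20.9 to 22.9) of loci in all 4 sets. In Mo17_R it was 24.5% (14.9 to 37.6) against 15.02% (14.2 to 15.9), again with intervals that overlapped. Root-only loci were thus mainly short from end to end, and those of longer span were not distinguishable in sharpness from shared loci at this number of loci.

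A small class of root-only loci was broad. The largest widths in both root sets were at 175324095 to 175324260 (chromosome 1, minus strand), with 166 bp in both sets and signals of 5.93 in B73_R and 7.49 in Mo17_R. Next was 32095616 to 32095765 (chromosome 1, plus strand), with 120 bp and 150 bp. It was followed by 69332573 to 69332673 (chromosome 5, minus strand), with 101 bp in both and signals of 12.7 and 11.8. The nearest same-strand shoot cluster lay 300, 3962 and 133 bp away from them.

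Both root sets mostly placed the start at the same base or a neighbouring one. Of the 399 root-only loci with exactly 1 cluster in each root set, 232 had an identical dominant base (58.1%, interval 53.2 to 62.9), beside 46.2% of all loci in both root sets. The dominant bases were 1 to 10 bp apart in 35.6% and more than 10 bp away in 6.27%, against 26.2% more than 10 bp away in loci of all 4 sets. With at least 20 tags in both root sets, 72.6% of 237 loci shared the base (66.6 to 77.9), against 57.3% (55.9 to 58.7) in all 4 sets. Within classes of cluster shape the shares were closer. Among loci with several positions in both root sets it was 44.2% of 190 root-only loci (37.3 to 51.3) against 43.9% of loci in all 4 sets. Among loci with a single position in at least 1 root set it was 70.8% (64.3 to 76.6) against 76.2% (72.5 to 79.6).

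Some root-only loci moved their strongest start between the root sets. With at least 20 tags in both, the widest separation was again at 175324095 to 175324260 on chromosome 1. Its dominant site was 175324260 in B73_R (26 tags) and 175324095 in Mo17_R (34 tags), at opposite ends of the cluster. A minus-strand locus of chromosome 1 had its dominant base at 24407787 in B73_R (23 tags) and 24407883 in Mo17_R (37 tags). A minus-strand locus of chromosome 4 had it at 188672808 in B73_R (78 tags) and 188672726 in Mo17_R (39 tags), where Mo17_R listed that single base and nothing else.

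Taken over all levels of signal, root-only loci differed between the root sets about as often as other loci. Within levels the shares differed in opposite directions, higher than at shared loci where signal was strong and lower where it was weak. The values compared were log2(signal + 1), a scale that understates changes of weak loci, and a 4-fold difference with a higher signal of at least 1 was counted. By that rule 9 root-only loci were higher in B73_R (2.23%), beside 1.88% of all loci in both root sets, and 34 were higher in Mo17_R (8.44%), beside 9.87%. In either direction it was 43 loci (10.7%, 8.02 to 14.1), beside 11.8%. Where the lower root signal was at least 5, it was 14.1% of root-only loci (10.03 to 19.6) against 7.74% (7.06 to 8.47) of loci in all 4 sets. Where it was below 5, the share was 7.07% (4.26 to 11.5) against 17.2% (16.1 to 18.4). Signal was higher in Mo17_R at 290 of 403 loci, and the median log2 difference of B73_R minus Mo17_R was -0.53, against -0.71 over all loci in both root sets. On recovered tags of the dominant site, scaled to the total of such tags in each set, the median log2 difference was 0.08 in root-only loci and 0.07 in all. The lean towards Mo17_R was not seen on that measure. As it covers the dominant site alone and the signal covers the whole cluster, these medians are not like for like. Across the 403 loci, Spearman's rho of the signals was 0.612, as a description of points that share libraries. It was 0.753 across loci in all 4 sets and 0.473 across loci in both root sets and 1 shoot set.

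Among loci whose higher signal was at least 5, the largest excess in B73_R was at 8108959 (chromosome 1, minus strand). Its signal was 119 in B73_R (477 tags) and 2.39 in Mo17_R (9 tags), which is 5.15 on the log2 scale. Next was 13075646 (chromosome 3, plus strand), with 90.2 and 5.23 (log2 difference 3.87), and 87776154 (chromosome 1, minus strand), with 99.9 and 8.75 (3.37). At all 3 loci the B73_R cluster was 1 or 2 bp wide, while the weak Mo17_R cluster had widths of 23, 11 and 139 bp. The largest excess in Mo17_R was at 168945537 (chromosome 7, minus strand), with 12.5 in B73_R and 192 in Mo17_R (log2 difference -3.84). The site at 10990063 on chromosome 8 named above came next, also at -3.84. At 121095805 (chromosome 6, plus strand) the signal was 25.1 in B73_R and 310.2 in Mo17_R (-3.58).

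Along the chromosomes the root-only loci lay where other root start sites lay. They were found on all 10 chromosomes, from 78 on chromosome 1 to 27 on each of chromosomes 6, 8 and 9. Chromosome 1 held 19.4% of them (15.8 to 23.5) and 16.2% (15.5 to 16.9) of loci in all 4 sets. The plus strand held 193 of the 403 (47.9%, 43.1 to 52.8). The middle 50% of the chromosomes held 30.5% of root-only loci and 31.3% of loci in all 4 sets, and the outer 10% at both ends held 35.7% and 34.7%. Positions are relative to the last base listed on each chromosome.

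**Figure D4:**
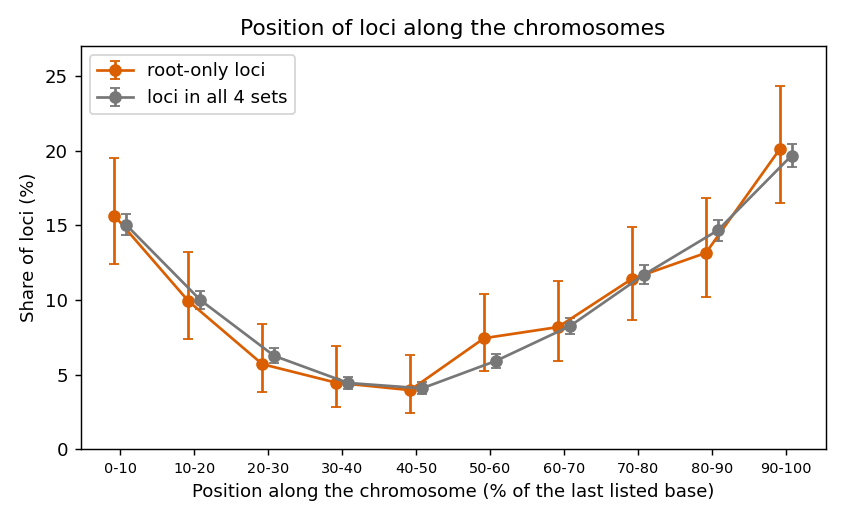
Share of root-only loci (orange, 403 loci) and of loci in all 4 sets (grey, 9757 loci) in each 10% step of the chromosome, counted from base 1 to the last listed base and summed over the 10 chromosomes, with 95% Wilson intervals. Both curves are lowest at 40 to 50% (3.97% and 4.09%) and highest at the far end (20.1% and 19.7%).

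Over both strands together, root-only loci lacked a shoot cluster within 10000 bp about as often as shared loci did. The single strands went different ways, with the share lower on the same strand and higher on the opposite strand. The median distance to the nearest shoot cluster was 46608 bp on the same strand and 75343 bp on the opposite strand, against 49479 bp and 62946 bp for loci in all 4 sets. No shoot cluster lay within 10000 bp on either strand for 250 of the 403 loci (62.0%, 57.2 to 66.6), against 63.0% (62.0 to 63.9) of loci in all 4 sets when their own shoot clusters are not counted. On the same strand alone it was 68.5% (63.8 to 72.8) against 73.1% (72.2 to 74.0). On the opposite strand alone it was 89.3% (85.9 to 92.0) against 84.9% (84.1 to 85.5). On the opposite strand 1 root-only locus (0.248%, 0.0438 to 1.39) had a shoot cluster within 500 bp, at 409 bp, against 2.05% (1.79 to 2.35) of loci in all 4 sets.

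A minority lay beside a shoot start region on the same strand. Within 500 bp, 57 root-only loci had a shoot cluster (14.1%, 11.1 to 17.9), beside 8.31% of all loci in both root sets, which had one outside their own locus. Loci listed in both root sets and in 1 shoot set had one in 12.2% (10.1 to 14.8), an interval that overlaps that of root-only loci. Within classes of cluster shape the intervals also overlapped those of loci in all 4 sets. With several positions in both root sets it was 10.9% (7.27 to 16.1) against 7.48% (6.96 to 8.04). With a single position in at least 1 root set it was 17.1% (12.6 to 22.7) against 12.4% (9.97 to 15.3). The 57 root-only loci were mostly weak. Where the lower root signal was below 5, 41 of 198 had one (20.7%, 15.6 to 26.9) against 7.91% of loci in all 4 sets, and at 5 or more 16 of 205 had one (7.80%, 4.86 to 12.3) against 7.68%. At 4 times the shoot limit or more, 1 of 73 had one (1.37%, 0.242 to 7.36), against 8.99% (8.01 to 10.1). The median signal of the 57 was 4.01 in B73_R and 5.68 in Mo17_R. For the 276 loci with no shoot cluster within 10000 bp on their strand it was 6.93 and 10.3.

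**Figure D5:**
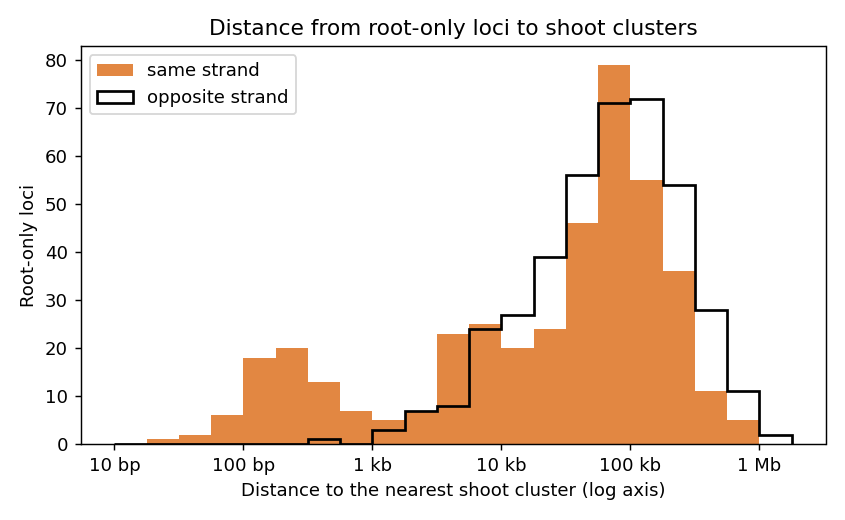
Number of root-only loci by distance to the nearest shoot cluster, in equal steps of log10 distance, on the same strand (filled) and on the opposite strand (line). The same-strand distances form a small peak between 100 and 500 bp and a large one near the median of 46608 bp, and on the opposite strand only 1 locus lies below 1 kb.

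The neighbours of these 57 loci were start regions of both tissues more often than of shoot alone, which is the usual state of shoot loci. Outside runs, 1156 of 12470 loci listed in both shoot sets (9.27%) were in neither root set. The neighbouring locus was also listed in a root set in 49 of the 57 (85.96%, 74.7 to 92.7), which is not above that usual state. These shares are not like for like, as neighbours listed in a single shoot set are counted too. In 24 of the 57 the neighbour was listed in all 4 sets. A further 13 had a neighbour listed in Mo17_R and Mo17_S alone, which came to 11 separate neighbours, and 4 had one listed in B73_R and B73_S alone. The shoot cluster lay upstream of the root-only locus in 32 cases and downstream in 25 (56.1% upstream, 43.3 to 68.2). Where the neighbour was in all 4 sets it lay upstream in 18 of 24 (interval 55.1 to 88.0%). Among them, the root-only loci at 963947 to 963953 and 964061 to 964062 on chromosome 2 shared the same neighbour, which is counted for each. In these 24 the root-only locus was the weaker of the pair in 21 in B73_R and 22 in Mo17_R, with median signals of 3.65 and 5.31 against 12.7 and 21.3 at the neighbour. Signal is tied to the rule through the listing limits, so that order is a description and carries no test. The neighbour's median was 8.46 in B73_S and 9.31 in Mo17_S. At 58309954 to 58309955 (chromosome 10, plus strand), for example, the root-only locus had signals of 2.92 in B73_R and 5.68 in Mo17_R. Its nearest shoot cluster lay 49 bp upstream, in a locus at 58309714 to 58309917 with summed signals of 711 in B73_R, 1629 in Mo17_R, 81.1 in B73_S and 149 in Mo17_S.

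The closest neighbour of all lay 30 bp from the root-only locus at 142813514 (chromosome 8, minus strand), which had signals of 4.45 and 4.68. Just outside the rule, a locus on the minus strand of chromosome 4, 204843289 to 204843656, shared a single base between its root and shoot clusters and had root signals of 6.78 in B73_R and 6.47 in Mo17_R. At the limit for dense runs, the 2 members in a stretch of 9 sites were at 86998410 to 86998417 and 86998621 to 86998622 (chromosome 10, plus strand), with B73_R signals of 9.80 and 2.57. The 2 loci left out in a stretch of 10 sites were at 170005467 to 170005470 and 170005613 to 170005635 (chromosome 4, minus strand), with 4.75 and 3.87.

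Most root-only loci had no other root-only locus within 100 kb, and a few formed local groups. Spacing depends on the number of loci, and whether it was wide or close for 403 loci was not tested. The median distance to the nearest other root-only locus was 1.26e+06 bp, and 58 of the 403 (14.4%) had another within 100 kb. Of these, 24 groups had 2 members, 2 groups had 3 and 1 group had 4. The closest pairs on the same strand were 108 bp apart on chromosome 2 (963947 to 963953 and 964061 to 964062), 120 bp apart on chromosome 7 (145778370 and 145778491) and 204 bp apart on chromosome 10 (the pair at 86998410 named above). The closest on opposite strands were 6868 bp apart on chromosome 6, 16008 bp apart on chromosome 4 and 21224 bp apart on chromosome 7.

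The group of 4 spanned 168831883 to 168945539 on chromosome 7, and all 4 members were far stronger in Mo17_R. On the plus strand, the site at 168831884 had a signal of 5.23 in B73_R and 44.5 in Mo17_R, the site at 168847306 had 6.93 and 46.7, and the site at 168861245 had 7.83 and 58.1. On the minus strand, 168945537 had 12.5 and 192. The log2 differences of B73_R minus Mo17_R were -2.87, -2.59, -2.74 and -3.84, all in the same direction.

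Both groups of 3 held a pair of loci with nearly equal values and another member with a lower Mo17_R signal than that pair. On chromosome 10, minus strand, 85967277 had a signal of 17.9 in B73_R and 154.8 in Mo17_R, and 86020607, 53330 bp away, had 17.8 and 153.7. The dominant site stood 4 bp from the 5′ end of the locus in both. The third member, at 86114712, had 16.7 and 84.5. On chromosome 1 the root-only loci of rank 2 and 4, 35450 bp apart on opposite strands, had 936 and 922 tags in B73_R and 3215 and 3143 tags in Mo17_R. Their dominant sites stood 130 bp and 131 bp from the 5′ end of the locus. A weaker member at 49280692 had signals of 4.45 and 9.85. Among the 3160 possible pairs of the 80 loci with at least 50 tags in both root sets, 3 pairs had tags within 5% of each other in both sets, and the chromosome 1 pair was the only one of them on a single chromosome. The sources do not say how tags that match several places were placed, and whether these loci share tags was not tested. These pairs were singled out with their values known.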

How the data were processed

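The authors deposited start-site clusters in 4 sets, without a header and with no value per library. Bowtie2 2.0.4 is named in the submitters' processing notes. Sources used here name no genome build, clustering tool, thresholds or pooling. The deposited signal follows a power law of tags, with exponents of 1.09 (B73_R), 1.01 (Mo17_R), 0.888 (B73_S) and 0.877 (Mo17_S). Inverting it gave whole tags within 0.01 for 100% of dominant sites. The tags carry no molecular identifiers in the labels' protocols, so PCR copies count as tags. The shape score is the authors' deposited score and is not named in the files.

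Same-strand clusters were joined by an overlap of at least 1 bp in Python 3.11.15 (pandas 2.3.3, numpy 2.4.6, scipy 1.17.1). Figures used matplotlib 3.10.9. Loci overlapping the span of a dense run of any set were left out. Where a set had several clusters in a locus, signals were summed and the strongest gave site and width. Joining and tag recovery were tested on simulated data. The text names the 15 strongest loci, 3 per direction of difference between the root sets, the 3 widest site separations, the 3 broadest, the closest pairs, the groups and the edges of the rule. The members, lists and measures were chosen with earlier results of these data known. Reference gene tables of another assembly were not used.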

Additional observations from a re-analysis of the deposited data

How the results depend on the processing

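No paired analysis was possible because each set holds 1 value per cluster with no library or replicate, and leaving out a replicate could not be run for the same reason. Of 91 recomputed values, 65 stayed within the counting interval of the reported value (for the number of loci, within 1.5 times) and 26 did not. Some alternatives hardly changed the loci, so their values had little room to move. The number was 403 with runs counted by a locus's own clusters, 404 with a run gap of at most 1000 bp and 402 with both root signals at least 1. The share in the middle 50% of the chromosomes stayed between 30.1% and 31.7%. The number of loci fell from 403 to 205 where both root signals reached 5, to 192 with several positions in both and to 73 with both signals at least 4 times the shoot limit for single positions. These last 2 alternatives, and those without neighbouring members or with runs counted by a locus's own clusters, were chosen after seeing the data, as were all alternatives for the Mo17_R and chromosome-middle shares. Sharp loci in B73_R and Mo17_R were 78.4% and 71.7% with a width limit of 5 bp, 98.3% and 96.3% by a shape score above -1, 76.0% and 69.8% with several positions, and 95.9% and 90.4% at 4 times the shoot limit. Loci sharing the dominant site were 83.5% when 2 bp were allowed, 72.6% with at least 20 tags, 44.2% with several positions and 70.4% at 4 times the shoot limit. Loci beyond 4-fold were 14.1% with a signal of at least 5, 38.7% with a fold of 2, 14.6% with several positions and 15.1% at 4 times the shoot limit. Over all loci in both root sets this share was 8.11% with a signal of at least 5, 12.03% with several positions and 6.71% at 4 times the shoot limit. The root-only interval with several positions, 10.3 to 20.3%, covered the share over all loci. Loci with a shoot cluster within 500 bp were 21.5% with dense runs kept, 7.80% with a signal of at least 5, 10.8% when clusters were joined across 100 bp and 0% by construction across 500 bp, 2.48% within 100 bp, 10.9% with several positions and 1.37% (1 of 73 loci) at 4 times the shoot limit. Beyond the settings that change a definition or the loci counted, the cause was not tested. Intervals cover counting error only, and loci weak in shoot can fall under the listing limits.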
